A study of Mus musculus with 6 samples.

Results

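The genes of the Wnt and Notch signalling pathways were examined in pancreatic islets of an obese mouse strain prone to diabetes and of one resistant to it. The members were chosen by name, from the gene names that the array files give to their probes: Wnt, Fzd, Sfrp, Dkk, Axin, Notch, Jag, Dll and Hes genes with a number, and Hey1, Hey2, Heyl, Lrp5, Lrp6, Ctnnb1, Lef1, Tcf7, Wif1 and Rbpj. They comprised 64 of 27827 gene names, read by 89 of 41174 probes. Of the 64 genes, 45 belong to the Wnt pathway and 19 to the Notch pathway. NZO mice (strain NZO/HiBomDife) are labelled as prone to diabetes, and B6-ob/ob mice (strain C57BL/6.V-Lepob/ob), which carry an inactive leptin gene, are labelled as resistant. Both groups were male, ate a high-fat diet free of carbohydrate up to an age of 18 weeks, and had been given carbohydrate for 48 h when their islets were isolated. Islets from before the change of diet were not analysed here, so every value compares the strains after it. Each strain has 3 arrays, NZO 10, 11 and 12 and B6-ob/ob 4, 5 and 6, and 1 sample per array. Whether a sample holds the islets of a single animal or of several is not given in the labels, so the p-values speak only to sample-to-sample spread, part or all of which may be technical.

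Wnt proteins are secreted lipid-modified ligands that bind Frizzled receptors and the co-receptors Lrp5 and Lrp6, which spares beta-catenin from the Axin-containing destruction complex and lets it act in the nucleus with the transcription factors Lef1 and Tcf7 and their relatives. Secreted antagonists of the Sfrp, Dkk and Wif families act outside the cell on the ligands or co-receptors. Notch receptors are cut when a neighbouring cell presents a Jagged or Delta-like ligand, and the freed part joins the DNA-binding protein Rbpj to switch on Hes and Hey repressor genes. In the developing pancreas Notch signalling holds progenitors back from endocrine differentiation, and Wnt signals act in pancreatic growth and in stromal cells.

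Each probe is a 60-base strand that captures the labelled copy of a transcript, and a few of them decide how the values can be read. The probes for Hes1, a main Notch target, and for Wnt4, a ligand gene, are shown because their genome spans of 296 and 569 bases exceed their length, so that their letters lie side by side only in spliced RNA. This held for 7 of the 89 member probes, which span more than 100 bases. The Hes1 probe lies at chr16:30065983-30066278 and the Wnt4 probe at chr4:136851690-136852258, both on the plus strand of mm9, the build of the positions in the files.
Hes1 probe: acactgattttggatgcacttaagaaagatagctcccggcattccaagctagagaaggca
Wnt4 probe: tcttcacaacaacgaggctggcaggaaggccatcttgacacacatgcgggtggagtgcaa

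The Fzd2 and Fzd7 probes are shown together because these receptors are close relatives and one probe may capture the other's transcript. The Fzd2 probe lies at chr11:102467613-102467672 and the Fzd7 probe at chr1:59541367-59541426, both on the plus strand of mm9. Over the 50 bases in which they overlap, 42 letters are identical (84%), and capitals mark the 8 that differ.
Fzd2 probe: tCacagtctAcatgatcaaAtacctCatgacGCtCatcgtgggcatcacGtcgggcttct
Fzd7 probe: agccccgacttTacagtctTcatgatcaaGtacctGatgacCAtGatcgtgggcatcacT
Every other probe of a Frizzled gene was at most 43.2% identical to the Fzd2 probe over an overlap of at least 40 bases. Probes were compared with probes and not with whole transcripts, and even the second Fzd2 probe was only 40% identical. A low value therefore cannot show that the Fzd2 probe does not capture the transcript of another Frizzled gene.

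Promoters were searched for the core letters bound by TCF/LEF factors, CTTTGA, and by Rbpj, TGGGAA, on both strands of RefSeq windows of 300 bases (250 before a start site and 50 after it, build GRCm38.p6). A window was held for 44 of the 64 members. CTTTGA lay in a window of 6 of these 44 genes (13.6%), against 18.2% of 27025 genes and 16.0% of 32851 windows in the whole table. TGGGAA lay in a window of 8 of 44 (18.2%), against 28.3% of all genes and 25.6% of all windows. The windows of Fzd1 and Jag1, which were higher in NZO islets, and of Hey2, a Notch target, are shown as examples of matches. All 3 lie on the minus strand of their chromosome and are written 5′ to 3′ along the gene, with the match in capitals and TCAAAG or TTCCCA where it lies on the opposite strand.
Fzd1, chr5:4758217-4758466: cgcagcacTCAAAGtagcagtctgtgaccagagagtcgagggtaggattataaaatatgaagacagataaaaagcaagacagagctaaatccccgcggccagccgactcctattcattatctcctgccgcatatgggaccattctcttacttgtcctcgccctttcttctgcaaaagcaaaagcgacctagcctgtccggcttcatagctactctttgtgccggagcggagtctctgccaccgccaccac
Hey2, chr10:30842781-30843033: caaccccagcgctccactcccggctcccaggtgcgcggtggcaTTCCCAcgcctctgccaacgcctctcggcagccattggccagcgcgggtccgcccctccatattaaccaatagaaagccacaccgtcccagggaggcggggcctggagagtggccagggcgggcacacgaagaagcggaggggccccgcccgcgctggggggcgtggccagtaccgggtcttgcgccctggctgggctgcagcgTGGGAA
Jag1, chr2:137116491-137116770: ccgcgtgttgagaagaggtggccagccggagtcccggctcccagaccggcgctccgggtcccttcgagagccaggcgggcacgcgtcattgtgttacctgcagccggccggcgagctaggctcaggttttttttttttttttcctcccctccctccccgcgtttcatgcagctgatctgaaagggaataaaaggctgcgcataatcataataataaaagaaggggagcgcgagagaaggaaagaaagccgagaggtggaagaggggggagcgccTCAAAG
In Fzd1 the match begins 242 bases before the start site, in Jag1 24 bases after it, and in Hey2 one begins 207 and another 3 bases before it. A match of 6 letters is a description of the window and not a binding site. Of the 8 members higher in NZO that have a window, 2 held CTTTGA and 0 held TGGGAA; of the 17 members that were tested and not called, 2 and 4 did.

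Of the 64 genes, 40 had a probe well above background on at least 3 of the 6 arrays and were tested: 25 of 45 Wnt genes and 15 of 19 Notch genes. The other 24 (37.5%) were too dim. Levels are given as log2 intensity relative to the 75th percentile of the array, so that a level of 0 stands at that percentile, and differences are NZO minus B6-ob/ob on the same scale. In the value table that the authors deposited beside the scanner files, every column tracks an array that the labels give to the opposite strain. The directions given here rest on the labels of the scanner files and are opposite to those of that table. Which of the sources carries the right labels is not settled by the files, so every direction below depends on the scanner labels. By limma's moderated test with Benjamini-Hochberg adjustment over all 16418 genes, at an adjusted p under 0.05, 13 of the 40 members (32.5%) were higher in NZO islets, against 13.2% of all genes tested. None of the 40 was lower, against 9% of all genes; at an unadjusted p under 0.05 limma gave 2 lower and 19 higher. Together 22.2% of all genes were called in one direction or the other. The 3 NZO arrays lay above all 3 B6-ob/ob arrays for 21 members (52.5%, against 20.7% of all genes) and below them for 2 (5%, against 20.4%); in either direction this held for 41.1% of all genes.

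The median difference of the 40 members was 0.46, and 35 were above 0 and 5 below. Over all genes tested the median was -0.03, with 7720 above 0 and 8698 below. Notch members had a median of 0.67 with 7 of 15 higher, and Wnt members a median of 0.41 with 6 of 25 higher. Members that are bright only in one strain can pass the filter through that strain, so the count was repeated over genes well above background on all 6 arrays: 11 of 35 such members were higher (31.4%), against 11.5% of 14798 genes. Slide 2 held 1 NZO and 1 B6-ob/ob array, and slide 3 held 1 NZO and 2 B6-ob/ob arrays. The median of the members was 0.63 within slide 2 and 0.48 within slide 3. All 13 called members were above 0 within both, from 0.86 to 2.45 in slide 2 and from 0.66 to 3.32 in slide 3. Their sign could not have come out otherwise, since for each of the 13 all 3 NZO arrays lay above all 3 B6-ob/ob arrays. With slide as a fixed block in the limma fit, 11 of the 13 stayed called. NZO 12 was alone on slide 1, so it added nothing to the strain difference in that fit.

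**Figure D1:**
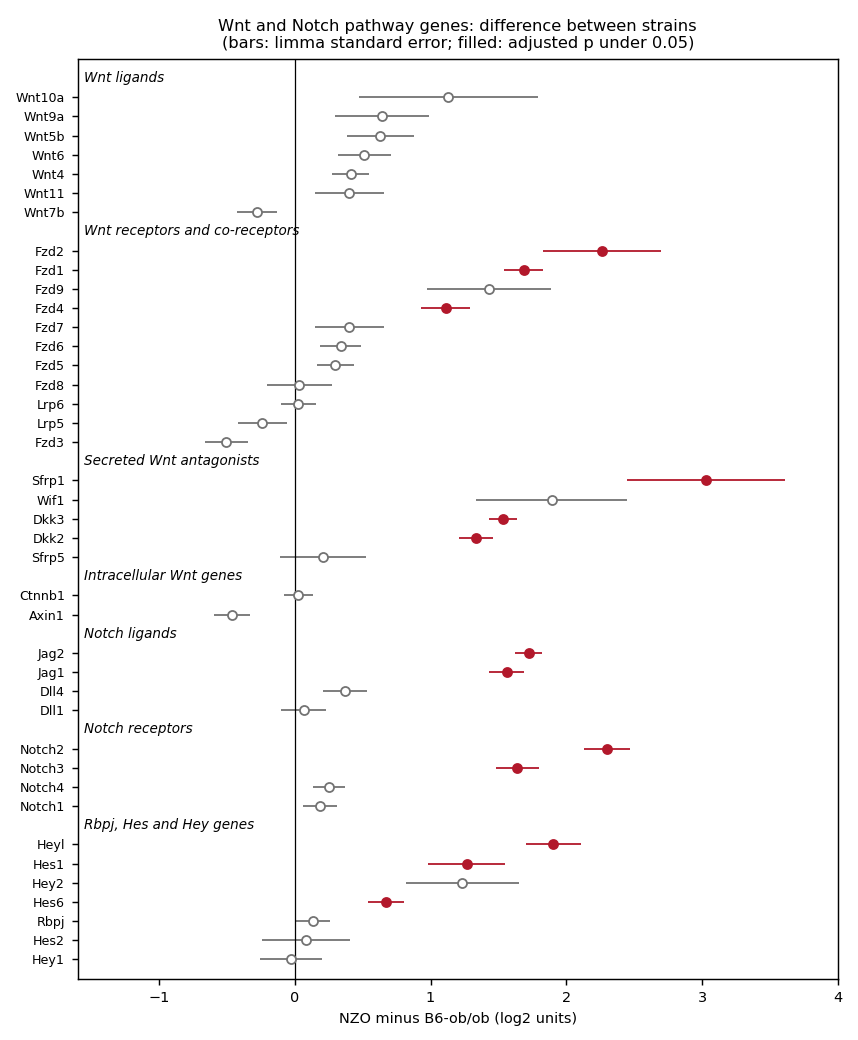
Difference between the strains (NZO minus B6-ob/ob, log2 units) of each of the 40 tested members, by role, with bars of 1 standard error of the limma fit over 3 arrays per strain and filled points for an adjusted p under 0.05. The 13 filled points all lie above 0, from 0.67 for Hes6 to 3.03 for Sfrp1.

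The samples also differed in other cells of the pancreas, as read by marker lists. Counts of called marker genes are read against 13.2% higher and 9% lower of all genes tested. For genes well above background on all 6 arrays the share higher was 11.5%. The stellate cell and fibroblast list had 15 of its 17 measured genes higher in NZO and a median difference of 2.56. Its mean level ran from 0.83 to 1.1 on NZO arrays and from -1.67 to -0.81 on B6-ob/ob arrays, without overlap. In this list the pericyte genes Pdgfrb and Rgs5 differed by 1.26 and 1.14, while Acta2, the smooth muscle actin gene, differed by -0.06. No rule set in advance picked these genes from the list, and Acta2 had further kept probes that are not given. The ductal list had 8 of 12 higher, a median of 1.95, and means from 0.57 to 1.01 against -1.94 to -0.71. The acinar list had 18 of 18 higher, a median of 2.56, and means from 5.74 to 6.39 against 2.80 to 4.40. Endothelial genes differed less, with 5 of 15 higher, a median of 0.30, and means from 1.68 to 1.95 against 1.06 to 1.43. The macrophage list had 6 of 14 higher, a median of 0.90, and means from -0.77 to -0.24 against -1.56 to -1.37. The Schwann cell list had 2 of 4 higher, a median of 1.12, and means from -2.21 to -2.02 against -3.47 to -2.91, with Gfap well above background on at most 1 array. The lymphocyte list had 7 of 7 higher, a median of 1.52, and means from -3.51 to -3.29 against -5.57 to -5.02. In it Cd2, Cd8b1 and Il7r were well above background on 0 B6-ob/ob arrays and passed the filter through NZO, so its B6-ob/ob means lie partly in the background. The same held for Aqp5, Cftr and Muc1 of the ductal list, Pdgfra of the stellate and fibroblast list and Cd163 of the macrophage list. The medians and B6-ob/ob means of these lists therefore also rest partly on background signals. Over genes well above background on all 6 arrays, the counts of higher genes were 3 of 3 lymphocyte, 12 of 13 stellate and fibroblast, 4 of 8 ductal, 17 of 17 acinar, 5 of 15 endothelial, 5 of 12 macrophage and 2 of 4 Schwann cell genes. Genes of the lymphocyte list too dim to test included Cd3d, Cd3g, Cd4, Cd8a, Cd79a, Ms4a1 and Cd5.

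The beta cell list and the list of other endocrine cells had means above 0 on every array of both strains. On the NZO arrays the acinar means (5.74 to 6.39) were higher than the beta cell means, and on the B6-ob/ob arrays (2.80 to 4.40) they were lower. The beta cell list had 1 of 9 genes called, lower in NZO, a median of -0.06, and means from 4.67 to 5.05 against 4.66 to 5.50. The list of other endocrine cells had 1 of 7 called, also lower, a median of -0.06, and means from 2.37 to 2.67 against 2.64 to 3.07. G6pc2, a phosphatase gene typical of beta cells, stood at 8.67, 8.54 and 8.69 on the NZO arrays and at 8.69, 8.67 and 8.74 on the B6-ob/ob arrays, which overlap. B6-ob/ob 6 stood apart from its group in the proliferation list, whose mean was -1.95 there, 1.56 and 0.96 on the other B6-ob/ob arrays, and from -1.27 to -1.08 on NZO arrays. That list had a median difference of -1.42 and 2 of 19 genes called, both lower in NZO, which is near the 9% of all genes called lower. Its mean on B6-ob/ob 6 lay below that on every NZO array, so the lower list mean in NZO rests on B6-ob/ob 4 and 5. Without B6-ob/ob 6, all 13 called members stayed called. The part of the stromal, ductal, acinar, endothelial, macrophage, Schwann cell, lymphocyte and proliferation differences in the results below was not tested. In these bulk samples fewer cells of a type and less RNA per cell cannot be told apart.

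**Figure D2:**
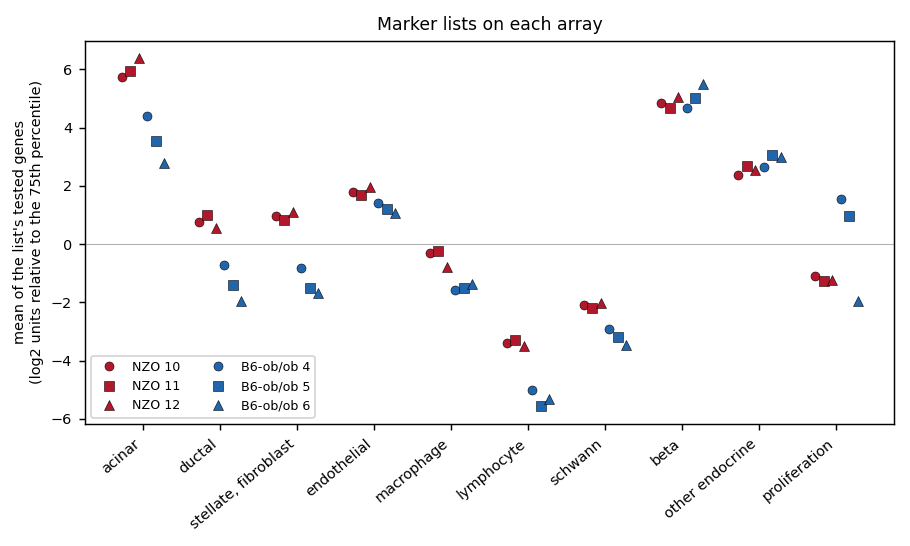
Mean level of each cell type marker list (log2 intensity relative to the array's 75th percentile) on the 3 NZO and 3 B6-ob/ob arrays. The acinar, ductal, stellate cell and fibroblast, endothelial, macrophage, lymphocyte and Schwann cell means lie higher on every NZO array than on any B6-ob/ob array. The beta cell, other endocrine and proliferation means overlap.

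Most Wnt ligand genes were too dim to test, and limma called 0 of the 7 tested, with 3 higher at an unadjusted p under 0.05. The 12 of 19 that were too dim were Wnt1, Wnt2, Wnt2b, Wnt3, Wnt3a, Wnt5a, Wnt7a, Wnt8a, Wnt8b, Wnt9b, Wnt10b and Wnt16. Of these Wnt9b was well above background on 1 NZO array and the rest on 0 arrays. The 7 differences ran from -0.28 for Wnt7b to 1.13 for Wnt10a, with a median of 0.51. Wnt4, a ligand that acts mainly outside the beta-catenin branch, was among the bright members in both strains. Its level was 3.67, 3.68 and 3.45 on the NZO arrays and 3.02, 3.21 and 3.34 on the B6-ob/ob arrays. The strains did not overlap, but the difference of 0.41 (SE 0.14, limma adjusted p = 0.0812) missed the threshold, and it was called with an intensity trend in limma's prior variance (adjusted p = 0.0499) and with array weights (0.0113). Wnt7b, which signals in epithelia, stood at 2.94, 3.38 and 3.03 against 3.41, 3.44 and 3.33, and the strains overlapped. Wnt5b differed by 0.63 (limma adjusted p = 0.127), Wnt9a by 0.64 (0.247), Wnt6 by 0.51 (0.117) and Wnt11 by 0.40 (0.316). Wnt10a was well above background on 3 NZO arrays and 1 B6-ob/ob array, and its arrays overlapped (limma adjusted p = 0.282). Without B6-ob/ob 4, Wnt6 (limma adjusted p = 0.0194) and Wnt9a (0.0232) were called higher.

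Among the receptors and co-receptors 3 of 11 tested genes were higher in NZO islets, Fzd1, Fzd2 and Fzd4. Fzd10 was too dim on both of its probes. Fzd1, a receptor for Wnt ligands, stood at -1.14, -1.20 and -0.78 on the NZO arrays and at -2.67, -2.75 and -2.76 on the B6-ob/ob arrays. The strains lay far apart relative to the spread within each, with a difference of 1.68 (SE 0.15, limma adjusted p = 8.87e-04), or 3.22-fold. After normexp background correction with quantile normalisation it was 1.09, still called. Fzd4, which also serves as the receptor for norrin in blood vessels, stood at 0.16, -0.11 and 0.43 against -1.07, -1.04 and -0.73. Every NZO array was above every B6-ob/ob array, and the difference was 1.11 (SE 0.18, limma adjusted p = 7.68e-03), or 2.16-fold.

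Fzd2 stood at -2.86, -3.29 and -2.91 on the NZO arrays and at -4.72, -6.31 and -4.82 on the B6-ob/ob arrays, of which 2 were well above background. All 3 NZO arrays were higher, and the difference was 2.26 (SE 0.44, limma adjusted p = 0.0144). This call rests on the probe printed above, since the second Fzd2 probe was above background on 0 arrays. It was lost without NZO 10 (2.18, limma adjusted p = 0.0522) and with slide as a fixed block (2.09, 0.0651). After normexp background correction it was 0.77 with 75th percentile scaling and 0.63 with quantile normalisation, both called. The Fzd7 probe with 42 letters in common was well above background on 1 of the 6 arrays, and the other Fzd7 probe differed by 0.40 (SE 0.26, limma adjusted p = 0.326) with overlapping strains.

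Fzd9 stood at -2.81, -2.80 and -3.39 on the NZO arrays and at -3.52, -4.43 and -5.33 on the B6-ob/ob arrays. The strains did not overlap, yet the B6-ob/ob arrays spread widely, and the difference of 1.43 (SE 0.46) had a limma adjusted p of 0.074. Without B6-ob/ob 4 it was called (1.88, limma adjusted p = 0.0145), as it was with array weights (1.52, 5.03e-03) and after both normexp corrections, at 0.59 (0.0310) and 0.45 (0.0351). Fzd3, a receptor of the planar polarity branch, was the receptor with the lowest difference. Its level was -0.86, -1.16 and -1.22 on the NZO arrays and -0.36, -0.63 and -0.74 on the B6-ob/ob arrays. All NZO arrays were lower, with a difference of -0.50 (SE 0.16, limma adjusted p = 0.0698), and the second kept Fzd3 probe gave -0.54. With array weights Fzd3 was called lower (-0.43, limma adjusted p = 0.0247). Fzd5, Fzd6 and Fzd8 differed by 0.30, 0.34 and 0.03, none of them called.

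The co-receptor Lrp6 was read by a pair of kept probes whose differences have opposite signs, neither called. The brighter stood at -2.77, -2.81 and -2.68 on the NZO arrays and at -2.81, -2.93 and -2.60 on the B6-ob/ob arrays, a difference of 0.03 (SE 0.13, limma adjusted p = 0.910). The dimmer stood at -3.69, -3.65 and -3.75 against -3.76, -3.63 and -3.42, a difference of -0.09 (SE 0.13, limma adjusted p over all kept probes = 0.666). On both probes the strains overlapped. Lrp5 differed by -0.24 (SE 0.18, limma adjusted p = 0.402).

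The secreted antagonists had the highest median of the Wnt roles, 1.53 over 5 tested genes. Of these 5 genes 3 were higher in NZO, against 13.2% of all genes, and 3 were well above background on all 6 arrays. The median and the ranking hold for the main scaling and rest partly on dim probes. After normexp the called antagonists had smaller differences, as given below. Dkk3, a Dickkopf relative, stood at -3.04, -3.09 and -2.99 on the NZO arrays and at -4.56, -4.51 and -4.66 on the B6-ob/ob arrays. Spread within the strains was small, and the difference was 1.53 (SE 0.10, limma adjusted p = 4.34e-04), or 2.90-fold. Dkk2, which binds the Lrp5 and Lrp6 co-receptors, stood at -3.01, -2.73 and -2.90 against -4.23, -4.32 and -4.10. The strains were again apart, by 1.33 (SE 0.13, limma adjusted p = 1.22e-03), or 2.52-fold. The sizes for both Dickkopf genes depend on the background correction: after normexp with 75th percentile scaling each was 0.59, and with quantile normalisation Dkk3 was 0.46 and Dkk2 0.47, all still called. Sfrp1, a soluble Frizzled-like protein that binds Wnt ligands, stood at -2.99, -3.42 and -2.98 on the NZO arrays. On the B6-ob/ob arrays it stood at -5.01, -6.04 and -7.43, of which 1 was well above background. Every NZO array was higher, but with 2 of 3 B6-ob/ob arrays in the background the size of the difference, 3.03 (SE 0.58, limma adjusted p = 0.0142), is poorly known: after normexp it was 0.81 with 75th percentile scaling and 0.66 with quantile normalisation, both called, and within slide 2 it was 2.02. The call was lost without B6-ob/ob 5 (limma adjusted p = 0.0531) and without NZO 10 (0.0507).

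Wif1, an inhibitor that binds Wnt ligands directly, stood at -3.36, -3.62 and -1.70 on the NZO arrays and at -4.55, -4.38 and -5.43 on the B6-ob/ob arrays, of which 2 were well above background. The strains did not overlap, but NZO 12 was far above the other NZO arrays, and the difference of 1.89 (SE 0.56, limma adjusted p = 0.0585) missed the threshold. Wif1 was called with an intensity trend in the prior variance (limma adjusted p = 0.0449) and with array weights (1.27, 0.0398). The difference was 1.24 with slide as a fixed block, 1.18 within slide 2, and 0.74 and 0.60 after normexp with 75th percentile and quantile scaling. Sfrp5 differed by 0.21 (SE 0.32, limma adjusted p = 0.699). Dkk1, Dkk4, Sfrp2 and Sfrp4 were too dim to test. Sfrp4 was well above background on 1 NZO array and 0 B6-ob/ob arrays. It stood at -4.68, -4.90 and -4.78 on the NZO arrays and at -7.08, -6.81 and -7.27 on the B6-ob/ob arrays, without overlap. The bound on its fold was 1.58, higher in NZO, but most of its NZO signals were not well above background either. With no filter on dim probes it was called higher (2.27, limma adjusted p = 1.07e-03).

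In the cell interior, Ctnnb1 and Axin1 were bright enough to test, of 5 genes, and neither was called. Ctnnb1, which encodes beta-catenin, stood at 3.55, 3.47 and 3.50 on the NZO arrays and at 3.55, 3.50 and 3.39 on the B6-ob/ob arrays. The strains overlapped, the difference was 0.03 (SE 0.11, limma adjusted p = 0.890), and its 3 kept probes gave differences from 0.01 to 0.15. Axin1, a scaffold of the destruction complex, stood at 0.11, -0.19 and -0.04 on the NZO arrays and at 0.32, 0.37 and 0.57 on the B6-ob/ob arrays. All NZO arrays were lower, and the difference of -0.46 (SE 0.13, limma adjusted p = 0.0558) lay just outside the threshold. It was called lower after normexp with quantile normalisation (limma adjusted p = 0.0469), with an intensity trend (0.0386) and with array weights (0.0190). Axin2, a common readout of beta-catenin activity, was well above background on 0 NZO arrays and 1 B6-ob/ob array, and so was Lef1 on the best of its 3 probes. Tcf7, a transcription factor of the pathway that is also abundant in T lymphocytes, was well above background on 2 NZO arrays and 0 B6-ob/ob arrays on 1 of its 2 probes. That probe stood at -4.05, -5.05 and -3.21 on the NZO arrays and at -7.38, -7.46 and -6.58 on the B6-ob/ob arrays. The strains did not overlap, and the bound on its fold was 2.54, higher in NZO, but not all of its NZO signals were well above background. The other Tcf7 probe was well above background on 0 arrays and differed by 0.01.

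Both Jagged ligands were higher in NZO islets, while the Delta-like ligands were not called. Jag2 stood at 1.55, 1.52 and 1.58 on the NZO arrays and at -0.21, -0.14 and -0.17 on the B6-ob/ob arrays. Spread within each strain was very small, and the difference of 1.72 (SE 0.10, limma adjusted p = 2.43e-04), or 3.30-fold, had the lowest adjusted p of the members. Jag1, whose promoter window is printed above, stood at -0.46, -0.45 and -0.35 against -1.85, -1.92 and -2.17. The strains did not overlap, and the difference was 1.56 (SE 0.13, limma adjusted p = 7.60e-04), or 2.95-fold. Dll4, a ligand of endothelial cells, differed by 0.37 (SE 0.16, limma adjusted p = 0.165) and was called without B6-ob/ob 6 (0.53, 0.0329). Dll1 differed by 0.06 (SE 0.17, limma adjusted p = 0.825) with overlapping strains, and Dll3 was too dim on its only probe.

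All 4 Notch receptors were well above background on all 6 arrays, and Notch2 and Notch3 were called higher in NZO. Notch2, a receptor with wide expression, stood at -1.37, -0.87 and -1.0 on the NZO arrays and at -3.37, -3.23 and -3.53 on the B6-ob/ob arrays. The gap between the strains exceeded the spread within them, with a difference of 2.30 (SE 0.17, limma adjusted p = 5.32e-04), or 4.92-fold. It was smaller, and still called, after normexp with 75th percentile (1.42) or quantile scaling (1.35) and in the authors' deposited value table with its sign turned (1.39). Of the other Notch2 probes, one was above background on 1 array and one on 0. Notch3, the receptor typical of pericytes and vascular smooth muscle, stood at 1.75, 1.72 and 1.97 against 0.44, 0.02 and 0.06. Again the strains did not overlap, and the difference was 1.64 (SE 0.16, limma adjusted p = 1.24e-03), or 3.12-fold. Notch1, a receptor of many cell types, stood at -1.67, -1.73 and -1.52 on the NZO arrays and at -1.82, -1.97 and -1.68 on the B6-ob/ob arrays. The strains overlapped and the difference was 0.19 (SE 0.13, limma adjusted p = 0.362). Notch4, a receptor of endothelial cells, stood at 1.19, 1.37 and 1.29 against 1.06, 1.14 and 0.90. All NZO arrays were higher, but by 0.25 (SE 0.12, limma adjusted p = 0.194), short of the threshold. A difference between the receptors in their response was not tested.

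Of the 7 tested nuclear Notch genes, 3 were higher in NZO: Heyl, Hes1 and Hes6. Rbpj, the DNA-binding partner of the cut receptor, stood at -1.23, -1.27 and -1.43 on the NZO arrays and at -1.50, -1.54 and -1.29 on the B6-ob/ob arrays. The strains overlapped, with a difference of 0.13 (SE 0.13, limma adjusted p = 0.505). Heyl, a Hey repressor found in vascular smooth muscle, stood at 1.27, 1.07 and 0.68 against -1.18, -0.79 and -0.72. The strains were well apart, by 1.91 (SE 0.20, limma adjusted p = 1.81e-03), or 3.75-fold, and the second Heyl probe gave 1.94 (limma adjusted p over all kept probes = 7.94e-04).

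Hes1, read by the spliced probe above, stood at -1.13, -1.57 and -0.51 on the NZO arrays and at -2.53, -2.40 and -2.09 on the B6-ob/ob arrays. The strains did not overlap although the NZO arrays spread widely, and the difference was 1.27 (SE 0.28, limma adjusted p = 0.0246), or 2.41-fold. The call was lost without B6-ob/ob 4 (limma adjusted p = 0.0589), without B6-ob/ob 5 (0.0894), without NZO 10 (0.0697) and with slide as a fixed block, where the difference was 0.98 (0.0683), and within slide 3 it was 0.67. Hes6, a Hes relative that opposes Hes1 and is expressed in endocrine cells, stood at 4.40, 4.18 and 4.01 on the NZO arrays and at 3.54, 3.57 and 3.47 on the B6-ob/ob arrays. All NZO arrays were higher, by 0.67 (SE 0.13, limma adjusted p = 0.0158), or 1.59-fold, the smallest called difference. The second Hes6 probe stood at 1.1, 0.72 and 0.48 against 0.27, 0.38 and 0.37, also without overlap. Its difference of 0.43 (SE 0.18, limma adjusted p over all kept probes = 0.140) was not called, so the Hes6 probes differ in call. The Hes6 call was also lost without B6-ob/ob 5 (limma adjusted p = 0.0638), NZO 10 (0.0527) or NZO 11 (0.0604).

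Hey2, whose promoter window is printed above, stood at -2.94, -3.54 and -2.58 on the NZO arrays and at -5.05, -4.10 and -3.62 on the B6-ob/ob arrays. The strains barely separated, and the difference of 1.23 (SE 0.42, limma adjusted p = 0.0853) was not called. It was called without B6-ob/ob 6 (1.55, limma adjusted p = 0.0467), with array weights (0.99, 0.0280) and after normexp with 75th percentile scaling (0.57, 0.0440), but not with quantile normalisation (0.44). Within slides 2 and 3 its difference was 2.11 and 0.32. Hey1, another repressor of this family, stood at 0.46, -0.13 and 0.18 against -0.18, 0.34 and 0.44. Its strains overlapped, with a difference of -0.03 (SE 0.23, limma adjusted p = 0.946). Hes2 differed by 0.08 (SE 0.32, limma adjusted p = 0.886). Hes3 and Hes7 were above background on 0 arrays and Hes5 on 1 B6-ob/ob array.

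**Figure D3:**
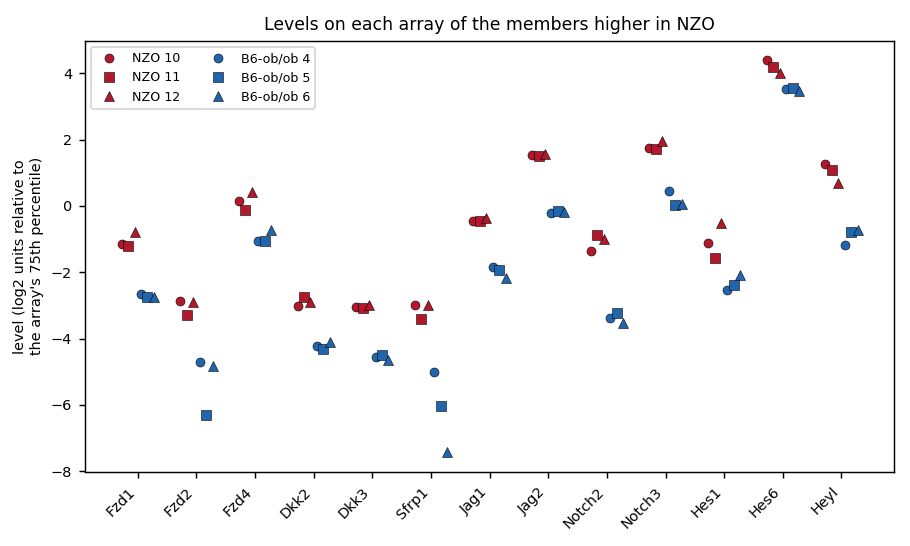
Levels (log2 intensity relative to the array's 75th percentile) of the 13 called members on each array, 3 NZO and 3 B6-ob/ob. For each gene all 3 NZO points lie above all 3 B6-ob/ob points, with the narrowest spread for Jag2 and the widest for Sfrp1 in B6-ob/ob.

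The remaining genes of the pathways were counted over lists chosen by function, read against the same 13.2% higher and 9% lower of all genes. Of the Wnt genes at the cell surface or secreted, 16 of 24 could be tested, and the 2 called were both higher in NZO, with a list median of 0.15. Of the 15 well above background on all 6 arrays, 1 was called. Sostdc1, a secreted antagonist of Wnt and BMP signals, was well above background on all 3 NZO arrays and 0 B6-ob/ob arrays, at least 5.97-fold higher. It passed the filter through NZO, where it is high. Gpc3, a heparan sulphate proteoglycan that binds Wnt proteins, differed by 2.38. The ligand enhancers Rspo1, Rspo2 and Rspo3 and their receptors Lgr5 and Lgr6 were too dim to test, as were Kremen2, Notum and Ror1.

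Of the 38 Wnt genes inside the cell or downstream, 36 were tested, 7 were higher and 2 lower, with a median of 0.15. Tnfrsf19, a receptor gene activated by beta-catenin, differed by 2.64, and the feedback inhibitors Nkd1 and Nkd2, which bind Dishevelled, differed by 2.17 and 1.22. Celsr1, a cadherin of the planar polarity branch, differed by 1.47 and the kinase gene Csnk1e by 1.1. The 2 lower genes were Ccnd1, the cyclin D1 gene, at -1.15 and Btrc, part of the ubiquitin ligase for beta-catenin, at -0.59. On B6-ob/ob 6, the array that stood apart in the proliferation list, Ccnd1 stood at 3.01, against 3.63 and 3.47 on the other B6-ob/ob arrays and 2.33, 2.19 and 2.13 on NZO arrays, so the strains did not overlap.

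Of the 22 Notch genes acting at the membrane, 21 were tested, 1 was higher and 4 were lower, with a median of -0.05. Mfng, a Fringe enzyme that adds sugars to Notch, differed by 0.80, and Rfng, another Fringe gene, by -0.53. Dner, a neuronal membrane protein related to Notch ligands, differed by -1.17, Neurl1a, a ubiquitin ligase for ligands, by -1.03, and Psenen, a subunit of the gamma-secretase that cuts Notch, by -0.48. Lfng was too dim.

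All 22 nuclear or related Notch genes were tested, with 5 higher, 1 lower and a median of 0.17. Rbpjl, the acinar relative of Rbpj and also a gene of the acinar list, differed by 2.15. Id3 and Id2, inhibitors of helix-loop-helix factors, differed by 1.27 and 1.01, Hdac1 by 0.98 and Nrarp, a feedback inhibitor induced by Notch, by 0.60. Neurog3, the endocrine progenitor factor repressed by Hes1 in development, stood at -5.36, -4.63 and -5.56 on the NZO arrays, of which 2 were well above background, and at -3.91, -2.43 and -2.91 on the B6-ob/ob arrays. The NZO arrays were all lower, and the difference was -2.10 (SE 0.43, limma adjusted p = 0.0172).

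**Figure D4:**
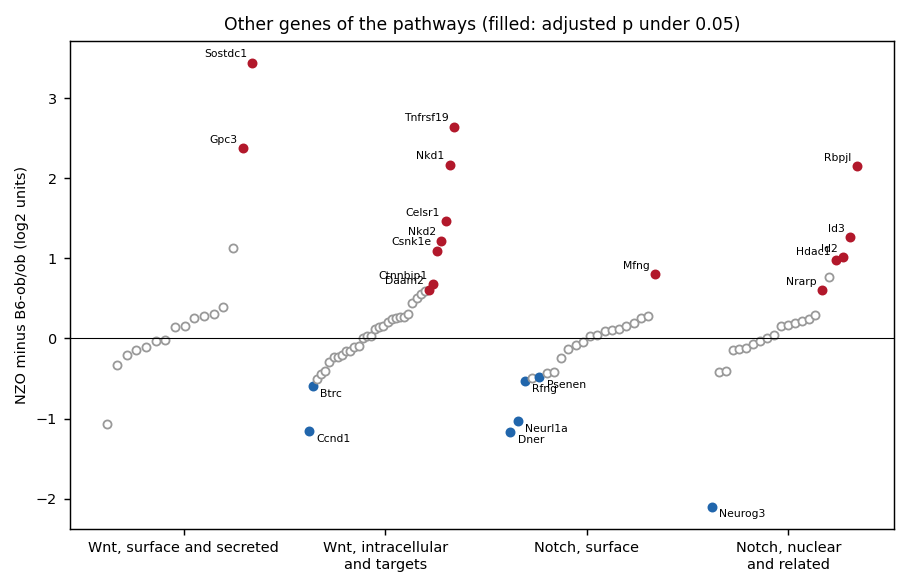
Difference between the strains (NZO minus B6-ob/ob, log2 units) of the tested genes of 4 lists of other Wnt and Notch pathway genes, sorted within each list, with filled points for a limma adjusted p under 0.05. Among genes well above background on all 6 arrays the highest points are Tnfrsf19 and Gpc3. Sostdc1 is drawn at its measured difference although its B6-ob/ob signal is not well above background, and 4 of the 5 called genes of the Notch surface list are lower.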

How the data were processed

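Islet RNA of 6 samples was labelled with Cy3, per the labels, and hybridised in 1 colour to an Agilent mouse array (design 014868 per the headers). The deposited scanner files hold spot intensity on a linear scale from Agilent's Feature Extraction software (per the file headers version 10.5.1.1, per the submitters' processing notes version 9.1), background-subtracted and not normalised between arrays. Control spots were left out, as were 61 to 76 spots per array flagged as outliers; 0 were saturated, and 23621 to 24710 probes per array were well above background. The number of arrays limits the precision. Spots of the same probe were averaged as log2 intensity, and the array's 75th percentile was subtracted. Probes well above background on 3 or more of the 6 arrays were kept (24628 probes), and the brightest kept probe stood for its gene. The two-sided test was that of limma (version 3.58.1, lmFit then eBayes, run in R 4.3.3). Its p-values were adjusted by Benjamini-Hochberg over the 16418 genes, and the functions were tested on simulated data. A bound on a fold sets the bright strain's mean against the dim strain's mean of, per array, the higher of the lowest signal well above background and the probe's own. Probe positions are as the files give them (mm9). Of the 89 member probes, 81 carry an accession found in the RefSeq table, all with the same symbol.

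The authors' deposited value table holds linear intensity of the same arrays (33150 rows, 33074 matched to a probe). Its column medians are 21.3, 21.4 and 21.45 for the columns labelled NZO 10, 11 and 12 and 22.1, 21.4 and 22.4 for B6-ob/ob 4, 5 and 6. It is linear and not centred; its direction against the scanner files is not settled, since each column correlates at -0.63 to -0.40 with the array of its own label and at 0.94 to 0.97 with an array of the other strain, so it served only as an alternative with the sign turned. The members and all lists were chosen with earlier results of these data known. Values on every array are given for called members, for members measured in 1 strain only, for members whose strains do not overlap with a difference of at least 1, and for members whose probes disagree; the best known members of each role and up to 5 called genes per direction of the other lists are also named. Values on every array of Fzd3, Axin1, Wnt4, Wnt7b, Notch4, Sfrp4, Tcf7, Ccnd1, Neurog3 and G6pc2 were given after they were seen. Some marker genes are not reported here.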

Additional observations from a re-analysis of the deposited data

How the results depend on the processing

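Over 19 alternatives, all 13 called members kept their direction and 9 kept the call in each alternative that measured them: Dkk2, Dkk3, Fzd1, Fzd4, Heyl, Jag1, Jag2, Notch2 and Notch3. Hes1, Hes6, Fzd2 and Sfrp1 did not, as given beside their values. With array weights, under which 6894 genes were called in all, 24 members were higher and 2 lower, with a median of 0.62. After normexp background correction the median was 0.23 with quantile normalisation, where 14 members were higher and 1 lower, and 0.31 with 75th percentile scaling. With an intensity trend in the prior variance 15 members were higher and 1 lower. The lower members were Axin1 in these fits and Fzd3 also with array weights. Leaving out each array in turn gave 9 to 15 higher members, 0 lower, and medians from 0.44 to 0.64. Slide as a fixed block gave 11 higher of 40, where Fzd2 and Hes1 lost the call. The value table with its sign turned also gave 11 higher, but of 35 members, and did not measure Fzd2 and Jag1. The within-slide values were added after seeing the data, and the median within slide 2 was 0.63. Median scaling placed the median of all genes at -0.11. The causes were not tested. No paired analysis was possible because the strains share no replicate number (10 to 12 against 4 to 6); slide, which holds both strains on slides 2 and 3, was used as a block instead. Probes near the background, such as those of Sfrp1, Fzd2 and Wif1, give differences of uncertain size.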

Other observations

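Hey1 was above 0 within slide 2 (0.64) and below 0 within slide 3 (-0.52), each with 1 NZO array, and these values have no test. The second Wnt6 probe was well above background on 2 NZO arrays and 0 B6-ob/ob arrays. The bound on its fold was 1.55, higher in NZO, but not all of its NZO signals were well above background. The first Wnt6 probe gave a difference of 0.51 that was not called.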
